A study of Mus musculus with 16 samples.

Results

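The Slingshot phosphatases are encoded by 3 mouse genes, Ssh1, Ssh2 and Ssh3. Their H3K4me3 was followed in every listed region that lay inside one of these genes or within 2 kb of either end, on the mm10 build. The rule found 7 of 35996 regions, with 2 at Ssh1, 4 at Ssh2 and 1 at Ssh3. The internal region of Ssh1, far inside the gene, was selected on its measured H3K4me3 change in Kdm5c KO against WT mice under standard conditions. Its values in that comparison are therefore a description and carry no test.

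H3K4me3 was profiled by chromatin immunoprecipitation and sequencing in whole hippocampus from male mice aged 2 to 4 months, with 2 libraries in each of 6 groups and the tissue of 2 mice pooled in each library. Wild-type (WT) and Kdm5c knockout (KO) mice of a mixed C57 and 129 F1 background were taken either from standard housing or after 1 h alone in a box with tubing and toys, called novelty here. Mice of a pure C57BL/6J background that the labels call ifKO Kdm5c, and their controls (ifWT here), were taken from standard housing. Controls were littermates in every case. The sources used here do not say how the KO and ifKO alleles were made or in which cells the ifKO allele acts. Line, strain and cohort differ together between KO and ifKO, so their parts in any difference between these lines cannot be told apart.

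Slingshot phosphatases remove an inhibitory phosphate from cofilin, a protein that severs actin filaments, and so switch it on; LIM kinases put the same phosphate on and switch it off. In hippocampal neurons this cycle shapes the actin of dendritic spines. H3K4me3 marks active promoters, and Kdm5c is an X-linked demethylase that removes methyl groups from this lysine.

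Ssh1 lies on the minus strand of chr5:113937094-113993803 and spans 56.7 kb. Its internal region, chr5:113942805-113943958, is 1153 bp wide. The region is centred 50.4 kb downstream of the start of the gene, with its nearer edge 5.71 kb inside the far end. It holds 0 annotated RefSeq starts. The promoter region of Ssh1, chr5:113992379-113994562 (also at the end of Gm52825), is 2183 bp wide. Ssh2, on the plus strand of chr11:77216157-77460220, spans 244.1 kb. Its regions are the promoter at chr11:77215482-77217646, shared with the end of Efcab5, and a second promoter 132.3 kb further in at chr11:77347860-77349538. The next lies inside the gene at the pseudogene Gm12346 (chr11:77293272-77294141), and the fourth beyond the far end of Ssh2, at the end of Coro6 (chr11:77462007-77463440). Ssh3, on the minus strand of chr19:4261668-4269233, spans only 7.6 kb and has its single region at chr19:4268198-4269600, also within 2 kb of Ankrd13d.

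Each promoter region covers at least 1 RefSeq promoter window, from 250 bases before to 50 after an annotated start. These windows, taken from RefSeq on GRCm38.p6, are shown because they mark where the family carries H3K4me3 in all libraries. They read 5′ to 3′ on the gene's strand, at chr5:113993741-113994040 (minus), chr11:77216175-77216474 (plus), chr11:77348030-77348329 (plus) and chr19:4269184-4269483 (minus). Capitals mark matches, on either strand, to the NRF1 palindrome or to the GC box GGGCGG.
Ssh1: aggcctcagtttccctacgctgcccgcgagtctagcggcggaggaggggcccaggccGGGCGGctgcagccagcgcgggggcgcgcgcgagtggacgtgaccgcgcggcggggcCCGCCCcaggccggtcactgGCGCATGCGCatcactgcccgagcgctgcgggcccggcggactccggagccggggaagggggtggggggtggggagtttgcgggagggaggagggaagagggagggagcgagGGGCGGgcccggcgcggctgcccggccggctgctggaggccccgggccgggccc
Ssh2: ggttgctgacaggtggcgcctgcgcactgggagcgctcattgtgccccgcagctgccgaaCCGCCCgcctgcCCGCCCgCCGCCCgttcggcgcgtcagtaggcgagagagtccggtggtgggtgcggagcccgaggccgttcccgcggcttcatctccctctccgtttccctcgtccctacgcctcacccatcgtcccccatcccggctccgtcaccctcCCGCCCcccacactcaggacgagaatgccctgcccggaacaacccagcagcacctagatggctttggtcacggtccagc
Ssh2 second promoter: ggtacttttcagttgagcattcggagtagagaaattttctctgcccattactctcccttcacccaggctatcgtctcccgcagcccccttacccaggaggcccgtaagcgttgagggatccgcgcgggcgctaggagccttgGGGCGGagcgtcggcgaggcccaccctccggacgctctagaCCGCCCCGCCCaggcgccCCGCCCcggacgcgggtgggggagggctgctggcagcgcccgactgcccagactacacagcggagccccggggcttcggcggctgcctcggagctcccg
Ssh3: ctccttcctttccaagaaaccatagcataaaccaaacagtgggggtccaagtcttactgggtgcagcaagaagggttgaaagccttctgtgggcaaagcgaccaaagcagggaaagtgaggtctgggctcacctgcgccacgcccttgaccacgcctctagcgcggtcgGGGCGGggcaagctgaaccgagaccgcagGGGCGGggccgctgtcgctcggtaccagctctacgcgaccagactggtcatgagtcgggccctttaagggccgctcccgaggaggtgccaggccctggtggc

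The Ssh1 window held 39 CpG and was 80% G plus C, with more CpG than 95.5% of the 32534 promoters in the table. The Ssh2 windows held 31 and 30 CpG and the Ssh3 window 19, against a median of 7 over all promoters. The Ssh1 window contained the only NRF1 palindrome among the 4 windows; 0.974% of all promoters contain one. GC boxes, present in 35.9% of all promoters, numbered 3 in Ssh1, 4 in each Ssh2 window and 2 in Ssh3. The E-box CACGTG and the full cyclic AMP response element, present in 7.17% and 1.8% of promoters, were in none of the 4 windows on either strand. The shorter response element TGACG, present in 20.9% of promoters, was found 2 times in the first Ssh2 window and is not capitalised. These matches describe the letters of the windows only. The sequence of the internal Ssh1 region was not analysed here.

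Library totals over the regions ranged from 18181192 to 30435735 counts, and log2 levels of the libraries of a group correlated across regions at r from 0.987 to 0.992. H3K4me3 at the end of Kdm5c itself was 61.6 to 72.2 CPM (counts scaled to a common library size) in WT, 59.9 to 60.9 in KO, 58.1 to 61.5 in ifWT and 53.5 to 59.6 in ifKO. This mark is no check of a deletion within the gene. Of 64 cell type markers, 56 had a region at a gene end, among them all 12 of the hippocampal pyramidal and granule neuron list. That list had the highest summed level in every library (718 to 934 CPM). It also had the most genes, 12 against 3 to 7, so the sums do not rank the lists. In a tissue of many cell types, fewer cells that carry the mark and less of the mark per cell cannot be told apart.

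The H3K4me3 levels of the 7 regions, per kb of region, fell into a wide order. The mean over 12 libraries was 51.9 CPM per kb at the Ssh2 promoter, above 94.9% of all regions. It was 25.3 at the second Ssh2 promoter, 23.7 at the Ssh3 promoter and 23.2 at the Ssh1 promoter. The last 3 overlapped: the second Ssh2 promoter exceeded the Ssh3 promoter in 8 of 12 libraries, and the Ssh3 promoter exceeded the Ssh1 promoter in 6 of 12. The Coro6 region followed with 13.3 CPM per kb, the Gm12346 region with 3.62 and the internal Ssh1 region with 2.06. The internal region stood below the Gm12346 region in 9 of 12 libraries, by up to 26.5-fold, and above it in 3 of the 4 KO libraries.

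**Figure D1:**
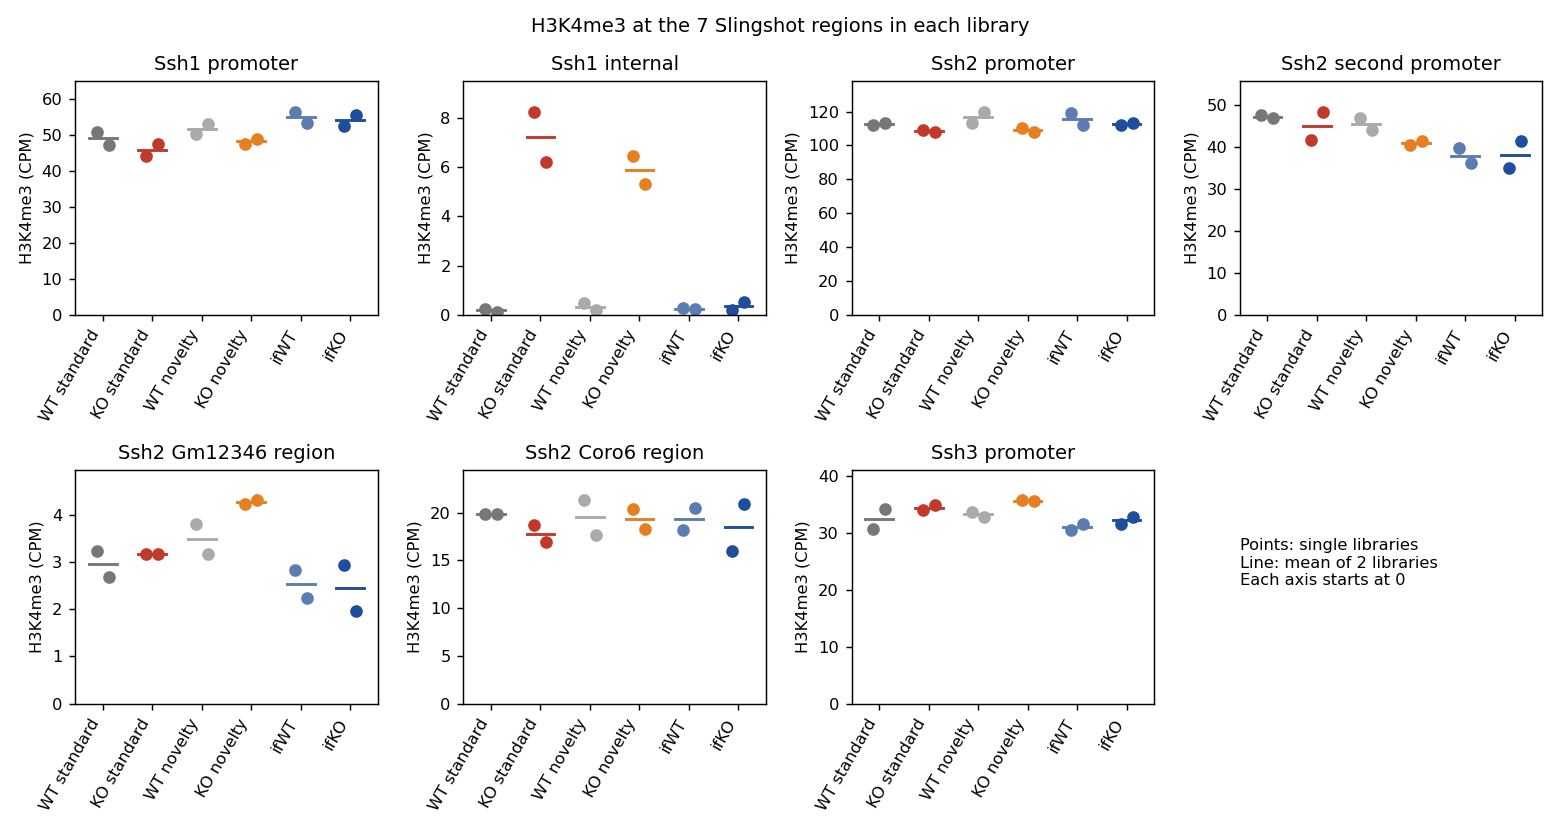
H3K4me3 of the 7 Slingshot regions, in CPM on axes that start at 0, with 1 panel per region, 1 point per library and a line at the mean of each group of 2. The internal Ssh1 region lies between 5.29 and 8.25 CPM in the 4 KO libraries and between 0.134 and 0.505 CPM in the other 8.

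The internal Ssh1 region was close to empty in WT and carried clear H3K4me3 in KO mice. Under standard conditions the WT libraries had 5 and 3 counts there, or 0.225 and 0.134 CPM, and the KO libraries had 201 and 169 counts, or 8.25 and 6.2 CPM. A count of 3 corresponded to 0.0953 to 0.168 CPM, so the WT levels sat at the edge of what these libraries resolve. The WT mean was 0.179 ± 0.064 CPM and the KO mean 7.23 ± 1.45 CPM (SD, n = 2 for both). The pooled CPM ratio of KO to WT was 40, with an exact 95% interval for counting error of 20.1 to 93.4. The fitted log2 change was 5.29 ± 0.37 (SE), rank 1 of 35955 regions tested, which is how the region came to be chosen.

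The novelty libraries came from other mice of the same cohort and were not used in that choice, although their values were already known when the region was taken up, so they are not independent support. WT mice after novelty had 11 and 6 counts in the internal region, or 0.464 and 0.209 CPM. KO mice after novelty had 203 and 130 counts, or 6.45 and 5.29 CPM. Both KO libraries were far above both WT libraries. The KO mean was 5.87 ± 0.821 CPM and the WT mean 0.337 ± 0.181 CPM (SD, n = 2 for both), with a pooled CPM ratio of 18.3 (exact 95% interval for counting error, 11.3 to 31.8). The log2 change was 4.16 ± 0.32 (95% interval 3.50 to 4.82, edgeR adjusted p = 2.2e-11), the rank 4 of 35955. It was 3.65 without WT novelty replicate 2 and 4.78 without WT novelty replicate 1, and it passed the threshold in both. After novelty the internal region, chosen for its KO gain, was thus called higher in KO than in WT mice. It was the 1 of 7 Slingshot regions called, where 17% of all regions were called.

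No such gain over the controls was measured in the ifKO line. The ifWT libraries had 6 and 5 counts in the internal region, or 0.294 and 0.223 CPM, and the ifKO libraries had 4 and 9 counts, or 0.206 and 0.505 CPM. The ifKO libraries lay on either side of the ifWT libraries, and the higher of them lay just above the highest WT library (0.464 CPM). The log2 change was 0.44 ± 0.62 (95% interval -0.82 to 1.69, edgeR adjusted p = 0.77), and the pooled CPM ratio was 1.36 (0.561 to 3.35). The upper bound of that interval is below the lower bound of the KO effect after novelty. The region was chosen for its KO gain, with the novelty values known, and that choice favours a KO effect above that of another line. The KO effect after novelty exceeded the ifKO effect by 3.72 ± 0.78 on the log2 scale (95% interval 2.14 to 5.30, edgeR adjusted p = 0.012). In that comparison 0.62% of all regions were called. This call was lost without WT novelty replicate 2 (3.21, adjusted p = 0.088), without ifWT replicate 1 (3.52, 0.14) or without ifWT replicate 2 (3.91, 0.1).

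Set against the main promoter of the same gene, the internal region changed from a trace to a sizeable share. Its level per kb was 0.835% and 0.538% of that of the promoter region in the WT libraries under standard conditions, and 35.5% and 24.7% in the KO libraries. After novelty it was 1.75% and 0.747% in WT and 25.7% and 20.4% in KO. In the C57BL/6J cohort it was 0.985% and 0.792% in ifWT and 0.742% and 1.72% in ifKO. The KO group means were 30.1% ± 7.63 under standard conditions and 23.1% ± 3.74 after novelty (SD, n = 2 each). The means of the other 4 groups ran from 0.686% to 1.25%. Because the region was chosen for its KO gain under standard conditions, the split there follows from the choice. The ratio is a description and was not tested.

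**Figure D2:**
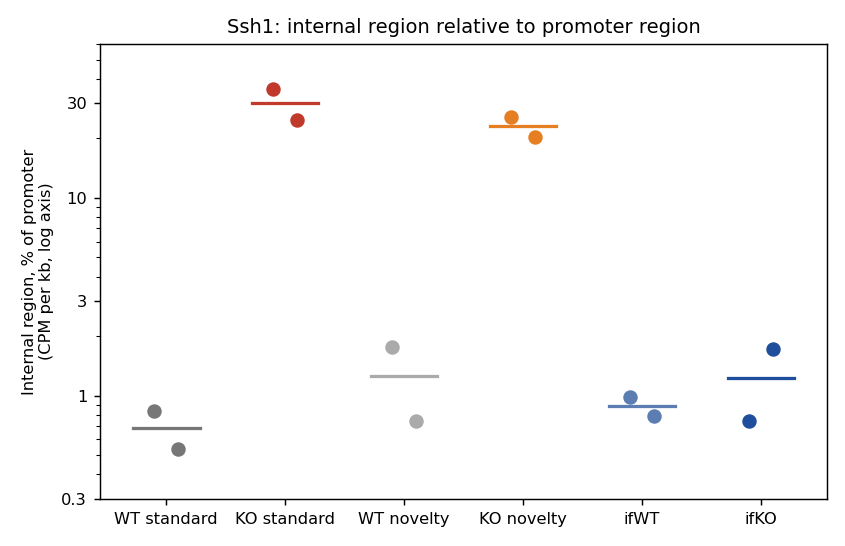
H3K4me3 per kb of the internal Ssh1 region as a percent of that of the Ssh1 promoter region, on a log axis, with 1 point per library and a bar at the mean of each group of 2. The 4 KO libraries lie between 20.4% and 35.5%, and the other 8 libraries at or below 1.75%.

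With novelty the internal region changed by 0.84 ± 0.62 on the log2 scale in WT and by -0.29 ± 0.21 in KO (SE), with overlapping libraries in both genotypes. The WT value rests on 3 to 11 counts a library and ran from 0.21 to 1.35 over 11 alternatives, and the KO value ran from -0.49 to -0.07 over 12. These values share the standard libraries that chose the region and were left untested.

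The main promoter of Ssh1 did not follow the internal region. Under standard conditions it had 50.9 and 47.2 CPM in WT and 44.1 and 47.6 CPM in KO, which overlap. After novelty it had 50.2 and 52.9 CPM in WT and 47.5 and 49 CPM in KO, which do not overlap, as in 59.2% of all regions. The log2 changes were -0.10 ± 0.07 (95% interval -0.23 to 0.04, edgeR adjusted p = 0.35) and -0.10 ± 0.06 (-0.23 to 0.03, adjusted p = 0.32). In ifWT it had 56.5 and 53.4 CPM and in ifKO 52.5 and 55.6 CPM, a log2 change of -0.02 ± 0.07 (-0.16 to 0.11, adjusted p = 0.9).

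Ssh2 is the longest of the 3 genes and has an alternative start far inside it. Its main promoter had 112 and 113 CPM in WT and 109 and 108 CPM in KO under standard conditions, and 113 and 120 against 110 and 108 CPM after novelty. All 4 KO libraries (108 to 110 CPM) lay below all 4 WT libraries (112 to 120 CPM), an ordering found in that direction in 13.8% of all regions. The differences were small and did not pass the test, with log2 changes of -0.06 ± 0.05 (edgeR adjusted p = 0.52) and -0.09 ± 0.05 (adjusted p = 0.22). Averaged over both conditions, a comparison added after the data were seen, the change was -0.07 ± 0.04 (adjusted p = 0.12); its sign turned (0.01) when offsets were fitted to region strength. The ifWT libraries had 119 and 112 CPM and the ifKO libraries 112 and 113 CPM, a log2 change of -0.04 ± 0.05 (adjusted p = 0.78).

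The second Ssh2 promoter, at an annotated start inside the gene, had 47.7 and 46.9 CPM in WT and 41.8 and 48.5 CPM in KO under standard conditions. After novelty it had 47 and 44 CPM in WT and 40.4 and 41.5 CPM in KO, without overlap, again as in 59.2% of all regions. The log2 changes were -0.06 ± 0.08 (edgeR adjusted p = 0.64) and -0.15 ± 0.08 (adjusted p = 0.18), and averaged -0.11 ± 0.05 (adjusted p = 0.13; -0.16 and 0.033 without KO standard replicate 2). It differed between the 2 control groups instead. The ifWT libraries had 39.8 and 36.2 CPM, both below the WT libraries, a log2 difference of -0.32 ± 0.08 (adjusted p = 0.0058), and the ifKO libraries had 35 and 41.5 CPM. This was the only Slingshot call among the 6 regions tested between ifWT and WT, a comparison in which 14.5% of all regions were called. It was lost without WT standard replicate 1 (-0.31, adjusted p = 0.061) or ifWT replicate 2 (-0.25, 0.094), and strain and cohort cannot be told apart in it.

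The other Ssh2 regions belong to neighbouring annotations. The Gm12346 region had 1.97 CPM in its lowest library, a median of 3.16 and 4.31 CPM in its highest, with log2 changes of 0.09 ± 0.22 (edgeR adjusted p = 0.83) in KO under standard conditions and 0.30 ± 0.21 (adjusted p = 0.34) after novelty. The Coro6 region, at a gene of the coronin family of actin-binding proteins, ran from 16 to 21.3 CPM with a median of 19.3. Its log2 changes were -0.16 ± 0.12 (adjusted p = 0.39) and -0.00 ± 0.11 (adjusted p = 0.99). Neither region passed the test in any comparison.

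Ssh3, the shortest gene, had the steadiest level per library after the Ssh2 promoter, with a coefficient of variation of 5.41% over 12 libraries against 3.31%. Its promoter had 30.7 and 34.3 CPM in WT and 34 and 34.9 CPM in KO under standard conditions, and 33.8 and 32.9 against 35.8 and 35.6 CPM after novelty. The KO libraries were above the WT libraries after novelty, where libraries did not overlap in either direction in 59.2% of all regions, and overlapped them under standard conditions. The log2 changes were 0.08 ± 0.08 (edgeR adjusted p = 0.51) and 0.10 ± 0.07 (adjusted p = 0.38). In the C57BL/6J cohort the ifWT libraries had 30.5 and 31.7 CPM and the ifKO libraries 31.7 and 32.8 CPM, a log2 change of 0.05 ± 0.08 (adjusted p = 0.79).

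Leaving aside the internal region, 0 of 6 Slingshot regions were called by edgeR in KO against WT under standard conditions, where 13.4% of all regions were called, and 0 of 6 averaged over both conditions, where 32.1% were. None of the 7 was called in ifKO against ifWT (5.39% of all regions). Novelty gave 0 Slingshot calls of 6 in WT and 0 in KO, where 0.00556% and 0% of all regions were called, and the interaction of genotype and novelty gave 0 of 6 (0% of all regions). Unadjusted edgeR p-values from the fit across all regions were under 0.05, without passing the adjustment, at 3 places. These were the Ssh1 promoter averaged over both conditions, the Gm12346 region with novelty in KO, and the Ssh1 promoter between ifWT and WT (log2 0.16 ± 0.07, edgeR adjusted p = 0.1). DESeq2 and limma-voom also called none of these regions in the KO, ifKO and novelty comparisons.

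**Figure D3:**
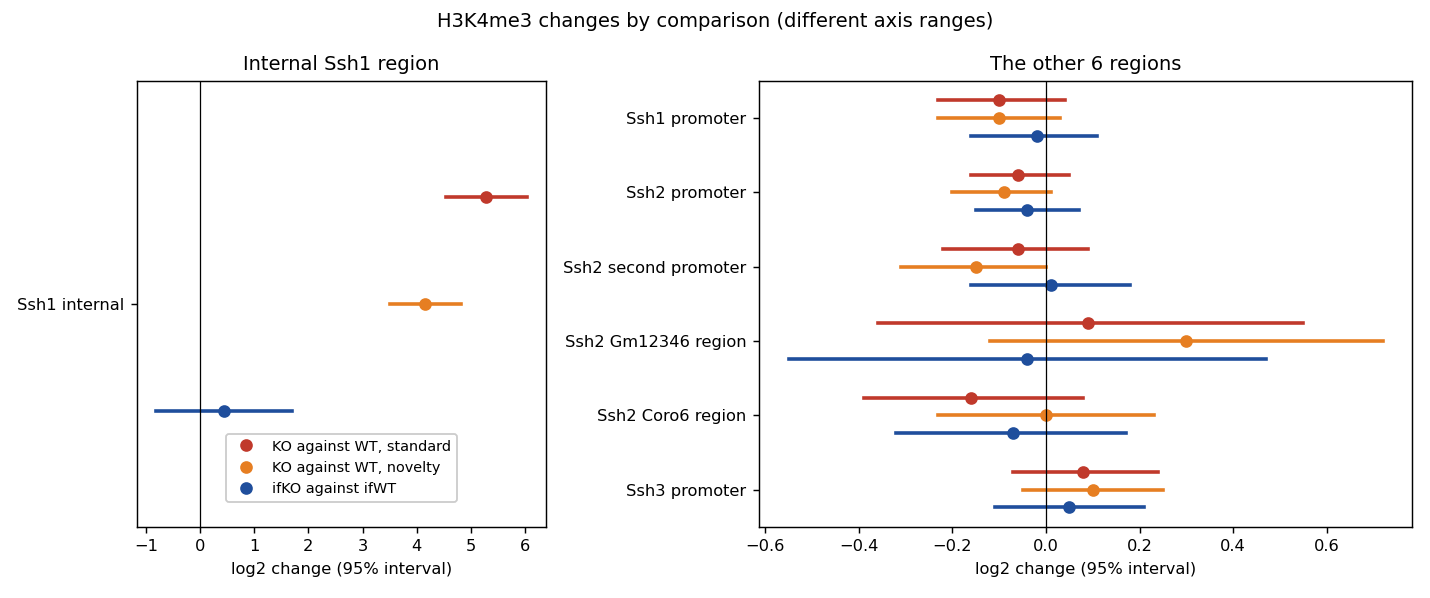
Log2 changes with 95% intervals (bars) of the 7 Slingshot regions in KO against WT under standard conditions, KO against WT after novelty and ifKO against ifWT, with the internal Ssh1 region on an axis of its own range. The internal region lies at 5.29, 4.16 and 0.44, and the other 6 regions lie between -0.16 and 0.30.

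Most regions around Ssh1 on chromosome 5 changed little in KO mice. Within 200 kb on either side of the internal region lay 19 others, at Ssh1 itself, Sart3 and Iscu, Tmem119, Selplg, Coro1c, Gm42005, Svop, Usp30, Alkbh2 and Ung. Their median log2 change was -0.05 under standard conditions, -0.03 after novelty and -0.12 in ifKO. The nearest one downstream, the promoter of Coro1c (a coronin that binds actin filaments), lay 35.2 kb away and changed by -0.05 ± 0.06 (edgeR adjusted p = 0.63) under standard conditions. Under standard conditions, where 13.4% of all regions were called, 1 of the 19 was called higher. This was a weak region at the other end of Coro1c, 100.6 kb away. It had 0.629 and 0.626 CPM in WT and 1.81 and 1.76 CPM in KO, a log2 change of 1.50 ± 0.37 (adjusted p = 0.0062), and the call was lost without WT standard replicate 1 (adjusted p = 0.058) or 2 (0.072). After novelty an adjacent weak region of Coro1c, 99.3 kb away, was called higher (adjusted p = 0.0047), with 0.0844 and 0.104 CPM in WT, no more than 3 counts a library, and 0.794 and 0.529 CPM in KO. That call was lost without WT novelty replicate 2 (adjusted p = 0.062) or KO novelty replicate 1 (0.071). Usp30, a deubiquitinase gene 157.3 kb away, was called lower after novelty (log2 -0.20 ± 0.06, adjusted p = 0.016), a call lost with library totals (0.058), with strength offsets (0.092) and without WT novelty replicate 1 (0.1), WT novelty replicate 2 (0.057) or KO novelty replicate 2 (0.16). In ifKO 0 of the 19 regions were called. Over all regions 17% were called after novelty and 5.39% in ifKO.

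**Figure D4:**
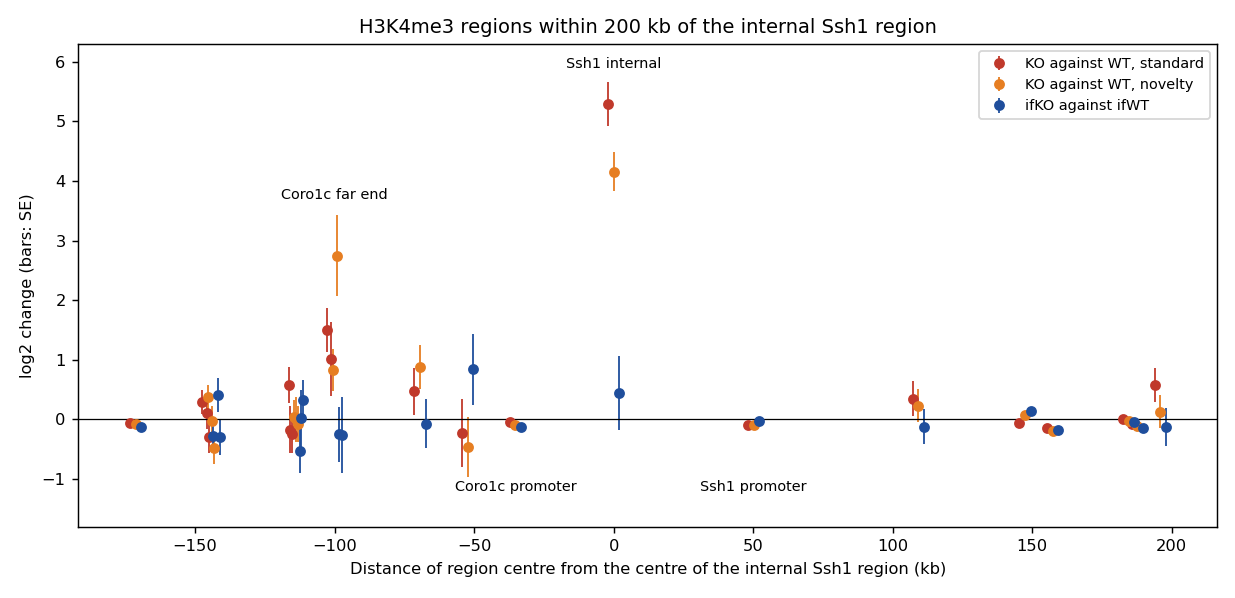
Log2 changes of the H3K4me3 regions within 200 kb of the centre of the internal Ssh1 region against their distance from it in kb, for KO against WT under standard conditions, KO against WT after novelty and ifKO against ifWT, with bars for the SE and the 3 comparisons set slightly apart along the x axis. The internal region has the highest KO changes at distance 0, and the Ssh1 promoter at 50.1 kb lies near 0.

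The regions whose levels across the 12 libraries were most like the internal Ssh1 region were picked by that likeness. A division between KO and all other libraries at these regions therefore follows from the choice and is no separate result. Likeness was Pearson's r of log2 CPM over 12 libraries, which share groups, and is a description of 30179 regions at or inside a gene, of which 45 exceeded 0.95. The region at the end of Rps4l on chromosome 6 had r = 0.984. It had 75.8, 74.5, 76.7 and 75.8 CPM in KO and 12.9 to 17.9 CPM in WT and ifWT. Its ifKO libraries had 16.4 and 23.2 CPM. A region inside Rpa1, which encodes a subunit of the single-strand DNA-binding complex RPA, had r = 0.980, with 5.95, 3.19, 5.02 and 3.74 CPM in KO and 0.581 to 1.12 CPM in the other libraries. D1Pas1, a DEAD-box RNA helicase gene expressed in testis, had r = 0.979. The lncRNA Gm52783 and a region inside Ctif, a translation initiation factor gene, each had r = 0.975. The Ssh1 promoter had r = -0.67 with the internal region.

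The pathway around the Slingshot proteins was followed at 42 genes, of which 41 had a region at a gene end; Ywhaz did not. In KO mice 0 were called higher and 7 lower under standard conditions, and 0 higher and 11 lower after novelty, with median log2 changes of -0.10 and -0.11 against 0.01 over all regions in both comparisons. Called lower were thus 17.1% and 26.8% of the 41 genes, beside 3.67% and 5.96% of all regions. Among the 12064 regions of the same strength, 9.44% and 15.8% were called lower and the median was -0.08 in both comparisons. With library totals the counts were 3 and 4 lower, and with offsets fitted to region strength 1 higher and 4 lower, then 2 higher and 3 lower, with medians of -0.01 and -0.04. Leaving out single libraries gave 2 lower under standard conditions when WT replicate 1 was dropped, 3 for WT replicate 2, 4 for KO replicate 1 and 3 for KO replicate 2. After novelty it gave 1 when WT replicate 2 was dropped, 4 for KO replicate 1 and 3 for KO replicate 2.

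Among the cofilins themselves, Cfl1, the main cofilin of brain, did not pass the test (log2 -0.11 ± 0.06, edgeR adjusted p = 0.24, and -0.10 ± 0.06, 0.23). Cfl2, the muscle-type cofilin, had 128 and 139 CPM in WT and 94.8 and 94.3 CPM in KO under standard conditions, a log2 change of -0.50 ± 0.08 (adjusted p = 7e-05). After novelty its libraries overlapped, with 99.2 and 129 CPM in WT and 93.5 and 120 CPM in KO (log2 -0.11 ± 0.08, adjusted p = 0.41). The interaction of genotype and novelty at Cfl2 was 0.39 ± 0.12 and did not pass the test (adjusted p = 1). Without WT novelty replicate 1 or KO novelty replicate 2 the novelty change was -0.28 (adjusted p = 0.025) and -0.29 (0.034).

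Of the 4 listed cofilin kinases, which oppose Slingshot, 2 were called lower under standard conditions and 1 after novelty. Over all regions 3.67% and 5.96% were called lower. Among the LIM kinases, Limk2 was called lower in both conditions and Limk1 in neither. Limk2 had 58 and 53.1 CPM in WT and 46.3 and 46.8 CPM in KO under standard conditions (log2 -0.26 ± 0.06, edgeR adjusted p = 0.0054). After novelty it had 51.3 and 51.2 CPM in WT and 44 and 44.3 CPM in KO (-0.22 ± 0.06, adjusted p = 0.015). All 4 KO libraries lay below all 4 WT libraries, as in 13.8% of all regions. The call was lost without WT standard replicate 1 (0.14), and after novelty with library totals (0.056) and without any of the 4 libraries (0.061 to 0.11). Limk1 changed by 0.00 ± 0.07 (adjusted p = 1) and -0.12 ± 0.07 (0.22). Pdxp, another cofilin phosphatase, changed by 0.03 ± 0.06 (0.77) and 0.08 ± 0.06 (0.36); with strength offsets the latter was 0.16 and passed the test (adjusted p = 0.014).

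Upstream of LIM kinase, Cdc42, a small GTPase that activates PAK kinases, had 80.1 and 80.8 CPM in WT against 66.6 and 68.1 CPM in KO under standard conditions (log2 -0.26 ± 0.05, edgeR adjusted p = 0.0013). After novelty it had 81.5 and 84.1 against 72.2 and 70.9 CPM (-0.21 ± 0.05, adjusted p = 0.006), lost with strength offsets (0.051) and without WT novelty replicate 2 (0.092) or the KO library of that number (0.067). Rock1, a kinase that phosphorylates LIM kinase, changed by -0.18 ± 0.05 (0.021) and -0.17 ± 0.05 (0.025). Ywhaq, a 14-3-3 protein of the kind that holds phosphorylated Slingshot in the cytoplasm, changed by -0.15 ± 0.05 (0.048) and -0.20 ± 0.05 (0.0069). Rock1 lost both calls with strength offsets (adjusted p = 0.2 and 0.33) and library totals (0.058 and 0.073), the first without any of the 4 libraries (0.064 to 0.17) and the second without WT novelty replicate 2 (0.3) or either KO novelty library (0.095 for replicate 1, 0.17 for replicate 2). Ywhaq lost both with strength offsets (0.34 and 0.097), the first also with library totals (0.14), with the replicate number as a block (0.061) and without any of the 4 libraries (0.11 to 0.21), and the second without WT novelty replicate 2 (0.094) or KO novelty replicate 2 (0.1). In ifKO 0 of the 41 genes were called higher and 1 lower, beside 5.39% of all regions called in either direction. The lower one was Prkd3, a protein kinase D that phosphorylates Slingshot (-0.25 ± 0.07, edgeR adjusted p = 0.04).

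**Figure D5:**
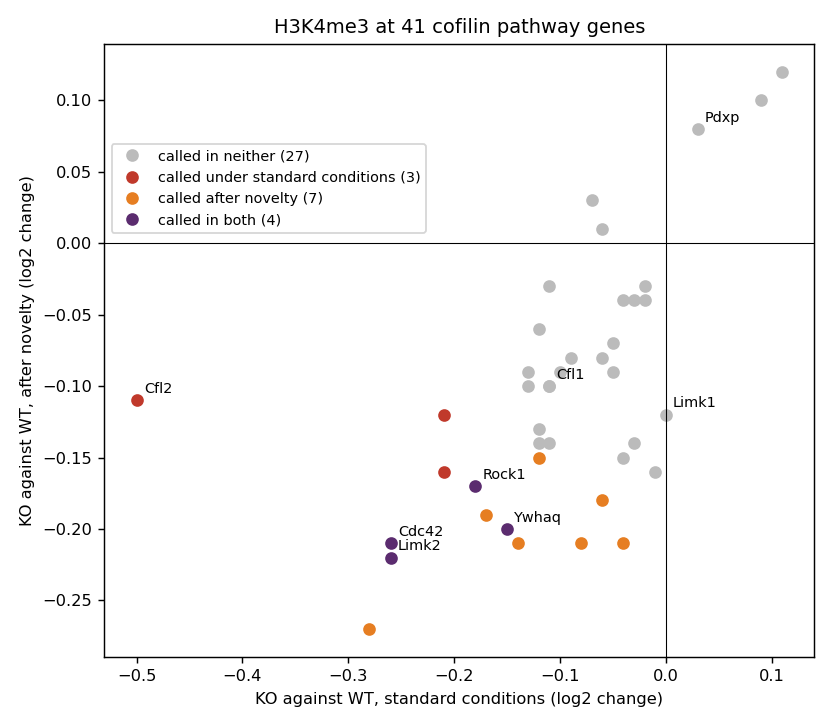
Log2 changes in KO against WT under standard conditions (x axis) and after novelty (y axis) of the 41 cofilin pathway genes, 1 point per gene, coloured by the comparisons in which the gene passed the test. Most points lie below 0 on both axes, with Cfl2 farthest to the left at -0.50.

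In KO 5 of the 56 cell type markers were called higher and 3 lower under standard conditions, where 13.4% of all regions were called. After novelty 6 were called higher and 6 lower, where 17% of all regions were called. Counts this near the share over all regions are not read as a result about the markers as a set. The neuron markers Neurod6 (log2 0.33 and 0.38) and Fezf2 (0.26 and 0.26) were higher in both conditions, and Prox1 (-0.37 and -0.35) lower. Gfap (0.34 and 0.38), P2ry12 (0.56 and 0.48) and Ccdc153 (1.11 and 0.88) were also called higher in both. The summed level of 7 vascular markers was 125 to 145 CPM in KO and 148 to 163 CPM in WT, with 1 marker called lower in each condition and median log2 changes of -0.23 and -0.17. That of 7 interneuron markers was 70 to 75.6 CPM in KO and 77.3 to 90.3 CPM in WT. Gad1, which encodes an enzyme of GABA synthesis, carried that difference as the 1 interneuron marker called, with log2 changes of -0.38 ± 0.10 (edgeR adjusted p = 0.0076) and -0.48 ± 0.10 (adjusted p = 0.00057), while the medians of the 7 were -0.03 and -0.01. The summed level of 3 choroid plexus and ependyma markers was 46.8 to 47.5 CPM in KO and 41.9 to 42.7 CPM in WT under standard conditions, and 41.7 to 43.4 against 37.7 to 39.3 CPM after novelty. Ccdc153 was the 1 choroid plexus and ependyma marker called in KO, while Kl changed by -0.01 ± 0.09 and 0.06 ± 0.09. In the C57BL/6J cohort the 3 choroid plexus and ependyma markers were at 53 CPM in both ifKO libraries and at 39.7 and 44.7 CPM in ifWT. The oligodendrocyte lineage markers were at 175 to 188 CPM in ifKO and 200 to 211 CPM in ifWT. The pyramidal and granule neuron markers were at 855 to 934 CPM in ifKO and 718 to 778 CPM in ifWT. Of these 12, Camk2a, a kinase gene of excitatory neurons, was the 1 called in ifKO, with 268 ± 6.49 CPM against 132 ± 11.2 CPM in ifWT (SD, n = 2 for both; log2 1.02 ± 0.06, edgeR adjusted p = 3.2e-13). Camk2a made up most of the higher ifKO sum of the neuron list, whose median log2 change in ifKO was 0.06. The part of the cell type markers in the Slingshot and cofilin results was not tested.

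The list of 2321 regions for which H3K4me1 and Kdm5C signal was given held 0 regions at Ssh1, Ssh2 or Ssh3. The nearest listed region lay 28.3 kb from Ssh1, 302.9 kb from Ssh2 and 3.3 kb from Ssh3, and 34.0 kb from the internal Ssh1 region. Neither H3K4me1 nor Kdm5C at the Slingshot regions was therefore analysed here.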

How the data were processed

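H3K4me3 was measured in 12 libraries of 6 groups, 2 separate pools of mice each per the series design. The deposited H3K4me3 files hold raw read counts per region and library over common regions, per the file headers. For H3K4me1 and Kdm5C (4 libraries) the deposited files hold a signal per region over 2321 regions and were used only for positions. The submitters' processing notes name SAMtools 1.3.1, Bowtie2 2.2.9, DESeq2 1.10.0, MACS2 2.1.0, featureCounts and R 3.3, with the mm10 build. The sources used here do not say how the regions were defined. Of 36005 listed regions 9 repeats were removed. Genes came from RefSeq on GRCm38.p6.

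All libraries were fitted together in edgeR 4.0.16 (R 4.3.3) with 1 mean per group, TMM factors, filterByExpr (35955 regions kept, all 7 Slingshot regions among them) and quasi-likelihood F tests. Adjusted p is Benjamini-Hochberg over all regions tested. A region rose, fell or was called when it was under 0.05. The spread behind each p was pooled over the groups; a permutation of 2 libraries against 2 cannot come under 0.05 for any one region. Standard errors were derived from the F statistic. CPM uses TMM-scaled totals. Intervals and floors of 3 counts cover only counting error, as reads lacking molecular identifiers need not be separate molecules. The fits were tested on simulated data. Alternatives were RLE factors, library totals, offsets fitted to region strength, no filter, DESeq2 1.42.0, limma-voom (limma 3.58.1), only the groups compared, the replicate number as a block, and each library left out.

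The members and lists were chosen with earlier results of these data known. Named were all Slingshot regions, the regions within 200 kb of the internal region and the 5 regions with the highest r to it. Of the cofilin pathway list, Limk1, Limk2, Cfl1, Cfl2, Pdxp and the genes called the same way in both KO comparisons were named. Prkd3, the unmeasured Ywhaz and the cell type markers in the text were named after their values were seen. Each list gene was represented by its gene-end region with the most counts, which other genes may share. For 1 ifWT library the title has H3K3me3 and the antibody label H3K4me3.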

Additional observations from a re-analysis of the deposited data

Results flagged for a closer look

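The genotype effect at the internal Ssh1 region differed between the 2 Kdm5c lines. The KO effect after novelty minus the ifKO effect was 3.72 ± 0.78 on the log2 scale (SE, edgeR adjusted p = 0.012), with 5.29 and 6.45 CPM in the KO libraries after novelty and 0.206 and 0.505 CPM in the ifKO libraries. The region was chosen for its KO gain, with the novelty values known, so an excess over another line was favoured by the choice and is not independent support. The call did not hold in every fit with a library left out. The lines also differ in strain and cohort, and the compared conditions in novelty, so these cannot be told apart.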

How the results depend on the processing

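After novelty the internal Ssh1 region was higher in KO than in WT mice in all 12 alternatives (log2 3.65 to 4.78). In the fits that kept all libraries of the compared groups, the edgeR, DESeq2 or limma-voom adjusted p ran from 3.2e-36 to 2.2e-07. Without single libraries the log2 change stayed between 3.65 and 4.78. The excess over the ifKO effect passed in 13 of 16 (3.20 to 4.47, 0.0018 to 0.14). Leaving out single libraries gave 0 to 1 Slingshot calls for that excess, 0 to 1 averaged over both conditions and 0 to 1 between ifWT and WT. The ifKO change of the internal region ran from -0.31 (without ifKO replicate 2) to 0.96 over 11 alternatives and was never called. Taken per region in place of per kb, the internal region was 0.363% of the promoter in WT and 15.9% in KO under standard conditions, 12.2% in KO after novelty and 0.469% in ifWT. Of the cofilin pathway genes, library totals called 3 lower under standard conditions and 4 after novelty, and strength offsets 1 higher and 4 lower, then 2 higher and 3 lower; leaving out single libraries gave 2 to 4 and 1 to 8 lower. The 5 regions most like the internal one shared 4 with a prior count of 0.5.

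Over all regions, KO against WT under standard conditions called 4820 (72.6% higher), and 2532 when WT replicate 1 was left out, 1984 for WT replicate 2 and 2543 for KO replicate 1. After novelty it called 6122 (65% higher), and 2239 when WT replicate 2 was left out, 2933 for KO replicate 1 and 3321 for KO replicate 2. Library totals moved the share of higher calls to 89.8% and 82.1%. The ifKO comparison called 1937, and leaving out single libraries moved that count down or up, depending on the library. The cause of these shifts was not tested. In those fits a group keeps 1 library, which is assumed to vary like the other groups.

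The replicate numbers are not said to mark a shared origin, and deviations of same-numbered libraries correlated at -0.099 to 0.059 over 15 pairs of groups. With the replicate block the internal region changed by 4.14 after novelty (adjusted p = 2.4e-11), and the counts were 4569 and 5806 over all regions and 6 and 9 lower in the cofilin pathway. At 0.0953 to 0.168 CPM for 3 counts, depth limits the internal region outside the KO libraries.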
